A study of Caenorhabditis elegans with 15 samples.

Results

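The caenacins and the peptides of the *nlp-29* group are short, glycine-rich secreted peptides that the worm makes mainly in its epidermis. 10 such genes were followed here, taken by name from the 46756 genes of the count table: the caenacins *cnc-1* to *cnc-5* and the neuropeptide-like genes *nlp-29*, *nlp-30*, *nlp-31*, *nlp-33* and *nlp-34*. All 10 were found in the table, and 8 of them had enough reads to be tested.

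The epidermis of *C. elegans* is a barrier tissue, and a fungal spore that adheres to the cuticle, or a wound that breaks it, is known to switch these genes on. Induction of *nlp-29* runs through a receptor on the epidermal surface, a G protein and a p38 MAP kinase cascade, whereas *cnc-2* is known to depend on a TGF-beta ligand, DBL-1, that neurons release. Several of the peptides, among them NLP-31, have antimicrobial activity outside the animal. The same epidermis builds a new cuticle at each larval molt.

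Young adults of 5 strains were grown from synchronized larvae at one temperature on *E. coli* OP50, and total RNA of whole worms was sequenced in 3 libraries per strain, made from separate worm preparations. The mutant strains were *nrx-1* (ok1649) and *nrx-1* (tm1961), with deletions in the long alpha isoforms of the worm's neurexin, and *nlg-1* (ok259), described as a full knockout of its neuroligin, and *nlg-1* (tm474), a partial deletion of the same gene. The wild type was N2. Neurexin and neuroligin are adhesion proteins of the synapse, neurexin mostly on the presynaptic and neuroligin on the postsynaptic side. The strains carrying tm1961, ok259 and tm474 had not been backcrossed, so the allele and the rest of the strain's genome cannot be told apart. In whole-worm RNA, fewer cells of a type and less RNA per cell cannot be told apart either.

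Each library held between 10152578 and 26211067 counts, and all levels below are CPM, the counts divided by library size, with library sizes scaled by TMM factors over the 15 libraries. Counts over the whole *nrx-1* gene were 4.02 to 8.81 CPM in the *nrx-1* strains, against 9.71 to 11.7 CPM in N2. Counts over *nlg-1* were 8.14 to 10.2 CPM in ok259 and 1.34 to 6.75 CPM in tm474, against 11.1 to 18.0 CPM in N2. In ok259, although it was described as a full knockout, the level was thus above that of the partial deletion. Deleted exons were not counted apart, so that whole-gene counts do not check the deletions. Replicate 1 of ok1649, ok259 and tm474 stood apart from the other 12 libraries, since the 6 yolk protein genes *vit-1* to *vit-6* summed to between 120169 and 164204 CPM there and to between 356 and 19961.5 CPM elsewhere. Noncoding genes took 3.51% to 25.3% of the counts in ok1649, 15.6% to 26.4% in tm1961, 2.99% to 30.3% in ok259 and 4.99% to 20.3% in tm474, against 4.03% to 5.50% in N2. All 10 epidermal markers examined, among them *elt-1*, *elt-3* and *lin-26*, were detected, and summed to 2801 to 3932 CPM in N2. The sums were 1048 to 8428 CPM in ok1649, 1446 to 1886 CPM in tm1961, 1013 to 7452 CPM in ok259 and 2452 to 11386 CPM in tm474. Every tm1961 library was thus below N2. So were replicates 2 and 3 of ok1649 (1048 and 1062 CPM) and of ok259 (1013 and 1677 CPM). The part of this in the values of the peptide genes was not tested.

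All 10 genes lie on chromosome V of the WBcel235 assembly. The 5 caenacin genes form a cluster from 1444044 to 1450183, in the order *cnc-1*, *cnc-5*, *cnc-4*, *cnc-3* and *cnc-2*. *nlp-34*, *nlp-31*, *nlp-30* and *nlp-29* lie side by side from 3978825 to 3984847, next to their relatives *nlp-28* and *nlp-27*. *nlp-33* stands alone, from 11147346 to 11147737. The annotation places no other gene over any of the 10. Reads that mapped to more than 1 place were not counted, so that levels of near-identical stretches within these families are uncertain.

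*cnc-1* and *cnc-5* were at the floor of detection in every strain. *cnc-1* had 3 counts in all 15 libraries together and *cnc-5* had 4, with at most 1 and 2 counts in any library, so that no fold change was computed for them. Their clustermates were well above this floor, and *cnc-4* reached 586 counts in a library.

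The 8 detected genes spanned a wide range of levels. In N2, per kilobase of exon, *nlp-33* was the most abundant at 226 ± 80.0 CPM per kb (SD, n = 3). *cnc-4* followed at 43.0 ± 18.4 and *nlp-31* at 32.5 ± 8.63 CPM per kb. *nlp-34* had 15.7 ± 10.2, *cnc-3* 7.96 ± 8.30, *nlp-29* 7.64 ± 0.98, *nlp-30* 6.35 ± 4.20 and *cnc-2* 1.70 ± 0.78 CPM per kb. Neighbours in this order overlapped in their spread, except that the lowest N2 value of *nlp-33* was above the highest of *cnc-4*, and the lowest of *nlp-31* above the highest of *nlp-34*. *nlp-33* alone took between 44.6% and 65.0% of the summed CPM of the 10 genes in every library. *nlp-29*, the most studied of the group, was thus a minor transcript in these unchallenged adults.

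**Figure D1:**
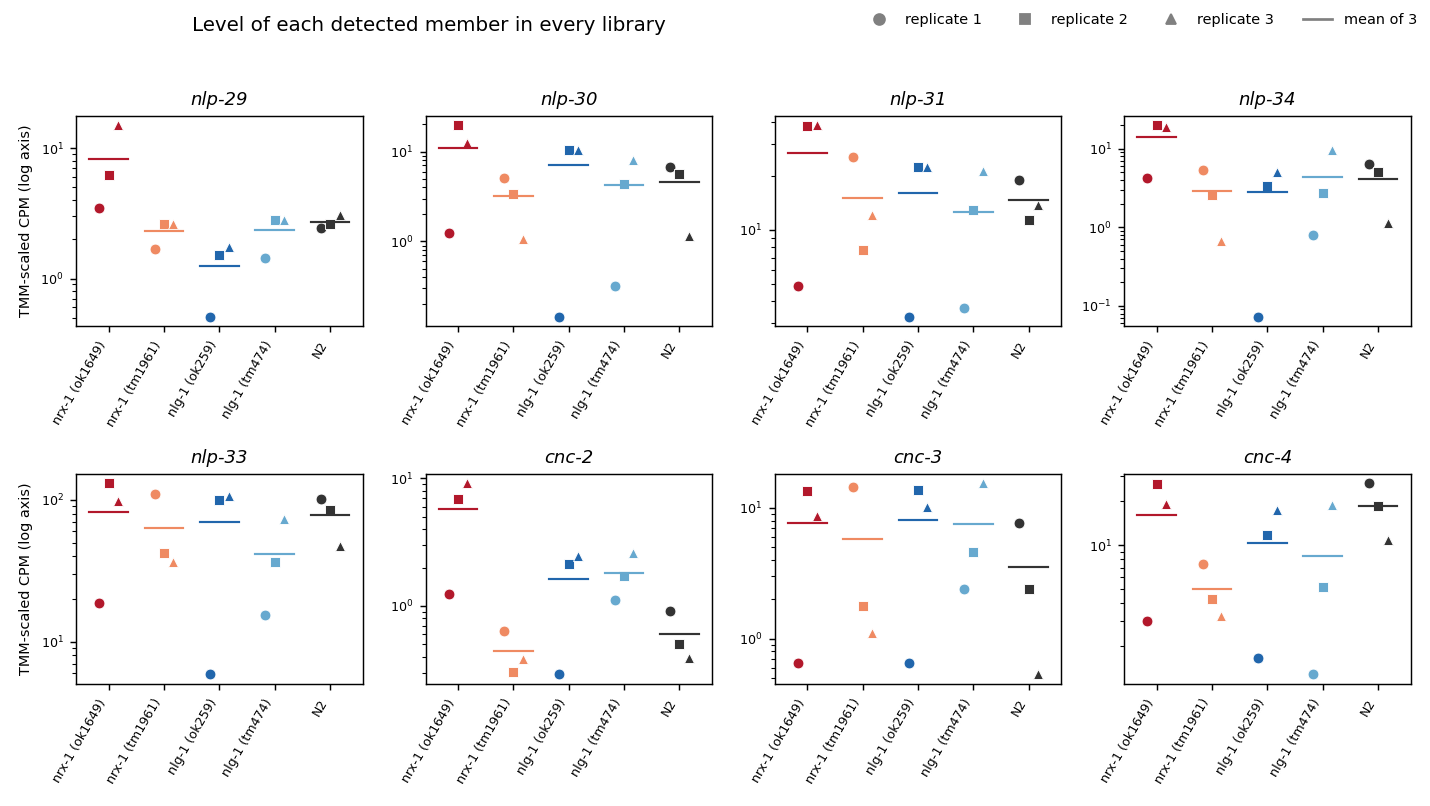
TMM-scaled CPM (log axis) of the 8 detected genes in each library, by strain, with N2 at the right. Symbols mark the replicate number and the horizontal bar is the mean of 3 libraries. Replicate 1 (circle) was the lowest library for all 8 genes in ok1649, ok259 and tm474, and the highest for 7 of 8 in tm1961 and in N2.

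For 6 of the 8 genes the libraries of a strain spread widely beside the differences between strains, with an F of 0.29 to 1.80 across the 5 strains in edgeR, against 7.36 for *cnc-2* and 6.503 for *nlp-29*. In replicates 1, 2 and 3, *nlp-33* had 18.8, 131 and 98.0 CPM in ok1649, 110, 42.2 and 36.8 CPM in tm1961, 5.88, 99.1 and 106 CPM in ok259 and 15.5, 36.6 and 73.0 CPM in tm474, against 102, 84.3 and 47.6 CPM in N2. Replicate 1 was far below the others in 3 mutant strains and above the others in tm1961 and N2, and every mutant range overlapped that of N2. Its edgeR log2 fold changes against N2 were -0.038 ± 0.70 (SE) in ok1649, -0.27 ± 0.51 in tm1961, -0.33 ± 0.92 in ok259 and -0.92 ± 0.61 in tm474, the last with an unadjusted p of 0.163.

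The low values of replicate 1 were not particular to *nlp-33*. Replicate 1 was the lowest library for 8 of 8 genes in ok1649, in ok259 and in tm474, where the mean of replicates 2 and 3 was a median of 7.07, 13.1 and 4.41 times the value of replicate 1. Over the 17395 genes tested across all libraries, replicate 1 was the lowest for 49.6% in ok1649, 47.4% in ok259 and 34.2% in tm474. In tm1961 and in N2 replicate 1 was instead the highest library for 7 of 8 genes, against 42% and 33.1% of all genes. Replicate 1 of ok259 held only 1 count of *nlp-34* and 2 counts of *nlp-30*, and replicate 1 of tm474 held 2 counts of *nlp-30*. These low libraries are the ones with yolk gene sums above 100000 CPM.

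*cnc-2*, the caenacin known for its dependence on the DBL-1 ligand, showed the widest separation between strains. It had 1.24, 6.90 and 9.19 CPM in ok1649 and 0.64, 0.30 and 0.38 CPM in tm1961. In ok259 it had 0.29, 2.15 and 2.45 CPM and in tm474 1.12, 1.70 and 2.60 CPM, against 0.91, 0.50 and 0.39 CPM in N2. Every library of ok1649 and of tm474 was above every N2 library, whereas tm1961 and ok259 overlapped N2.

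The difference in *cnc-2* was a log2 fold change of 3.13 ± 0.75 (SE) in ok1649, with an unadjusted p of 0.00258 and an adjusted p of 0.212 in edgeR's quasi-likelihood test. In tm474 it was 1.56 ± 0.66, with an unadjusted p of 0.0433 and an adjusted p of 0.588 in edgeR. The log2 fold change was 1.26 ± 0.82 in ok259 and -0.41 ± 0.56 in tm1961. The ok1649 value passed the threshold of 0.05 with DESeq2 (3.08, adjusted p = 0.0120), with no filter on low counts in edgeR (3.06, adjusted p = 0.0112, with 0.469% of all genes called higher) and in edgeR without ok1649 replicate 1 (3.54, adjusted p = 0.00431, with 21.2% of all genes called higher), and its adjusted p ranged from 0.00431 to 0.706 over 13 alternatives. With each library's noncoding share as a covariate it was 1.79 (edgeR adjusted p = 0.4005). Without ok259 replicate 1, *cnc-2* also passed in ok259 (1.80, edgeR adjusted p = 0.0195, with 19.4% of all genes called higher, range 0.0195 to 0.893 over 13 alternatives), while with the noncoding covariate it was -0.53 there and -2.06 in tm1961.

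*nlp-29*, whose induction is the usual readout of the epidermal response to fungus and wounding, had 3.50, 6.25 and 14.9 CPM in ok1649 and 1.68, 2.61 and 2.63 CPM in tm1961. It had 0.51, 1.51 and 1.75 CPM in ok259 and 1.44, 2.82 and 2.80 CPM in tm474, against 2.42, 2.60 and 3.09 CPM in N2. All 3 ok1649 libraries were above the N2 range, all 3 ok259 libraries were below it, and the other strains overlapped it. The N2 libraries differed from each other by a factor of only 1.28, the narrowest spread of the 8 genes in N2.

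The log2 fold change of *nlp-29* was 1.48 ± 0.56 (SE) in ok1649 (unadjusted p = 0.0277, edgeR adjusted p = 0.236). In ok259 it was -1.30 ± 0.59 (unadjusted p = 0.0600, edgeR adjusted p = 0.370). In tm1961 and tm474 it was -0.19 ± 0.36 and -0.21 ± 0.56. Without ok1649 replicate 1 the value for ok1649 was 1.76 with an edgeR adjusted p of 0.0140, in a fit that called 21.2% of all genes higher, and the adjusted p ranged from 0.0140 to 0.886 over 13 alternatives. With the noncoding share as a covariate *nlp-29* was 0.76 in ok1649, -1.15 in tm1961 and -2.20 in ok259.

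*cnc-4*, the most abundant of the 5 caenacins followed here, was the member with the smallest p in tm1961. It had 2.99, 26.4 and 19.3 CPM in ok1649 and 7.45, 4.25 and 3.25 CPM in tm1961. In ok259 it had 1.67, 11.8 and 17.4 CPM and in tm474 1.28, 5.11 and 19.02 CPM, against 26.8, 18.5 and 10.8 CPM in N2. The tm1961 libraries were all below the N2 libraries, and the other strains overlapped N2. The log2 fold change in tm1961 was -1.87 ± 0.48 (SE), with an unadjusted p of 0.00555 and an adjusted p of 0.0753 in edgeR.

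Same-numbered libraries of tm1961 and N2 deviated together from their strain means, and with the replicate number as a block *cnc-4* passed the threshold in tm1961 (-1.86, edgeR adjusted p = 0.00905). It also passed with DESeq2 (-1.91, adjusted p = 0.00773) and without tm1961 replicate 1 (-2.29, edgeR adjusted p = 0.0157, with 17.6% of all genes called lower), and the adjusted p ranged from 0.00773 to 0.427 over 13 alternatives. Under the block 15.5% of all genes tested were called lower in tm1961, which is the background for this single call. The difference had the same direction in all 13 alternatives.

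The remaining caenacin and the *nlp-29* neighbours overlapped N2 in every strain. *cnc-3* had 0.66 to 13.5 CPM in ok1649, 1.1 to 14.4 CPM in tm1961, 0.65 to 13.6 CPM in ok259 and 2.40 to 15.5 CPM in tm474, against 0.53 to 7.63 CPM in N2. It thus spanned more than its mean within each strain, and its log2 fold changes of 0.73 to 1.06 had standard errors of 0.99 to 1.17. *nlp-34*, at the far end of the *nlp-29* cluster, had 4.23, 19.6 and 18.6 CPM in ok1649, against 6.26, 5.06 and 1.14 CPM in N2. Its log2 fold change of 1.65 ± 0.74 (SE) in ok1649 had an unadjusted p of 0.0532, and replicates 2 and 3 carried the difference.

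*nlp-31*, the peptide with known antimicrobial activity, had 4.88, 37.8 and 38.2 CPM in ok1649, against 18.9, 11.3 and 13.7 CPM in N2. Replicate 1 of ok1649 lay below N2 and the other replicates above it, and the log2 fold change was 0.75 ± 0.68. Without ok1649 replicate 1, *nlp-31* (1.18, edgeR adjusted p = 0.0158, range 0.0158 to 0.999 over 13 alternatives) and *nlp-34* (2.01, edgeR adjusted p = 0.0365, range 0.0365 to 0.883) passed the threshold in ok1649, where 21.2% of all genes were called higher. *nlp-30*, which lies between *nlp-31* and *nlp-29*, had 1.24, 19.5 and 12.4 CPM in ok1649, against 6.81, 5.66 and 1.14 CPM in N2, with a log2 fold change of 1.16 ± 0.91.

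In all, edgeR called 0 of the 8 genes at both an adjusted p under 0.05 and a change of over 1 in size on the log2 scale in any of the 4 strains against N2. Of all genes tested, 0% were called higher and 0.0251% lower in ok1649, and 0% in either direction in tm1961, ok259 and tm474. Blocked on the replicate number, the fit of tm1961 against N2 instead called 1 lower (*cnc-4*), where 16% of all genes were called higher and 15.5% lower. At an unadjusted p below 0.05, 2 of the 8 were higher in ok1649 (*cnc-2*, *nlp-29*), where 13% of all genes were, against 5.11% lower. 1 was lower in tm1961 (*cnc-4*; 15.6% of all genes lower and 18.6% higher), 0 in either direction in ok259 (6.44% of all genes higher, 7.76% lower) and 1 higher in tm474 (*cnc-2*; 5.2% of all genes higher and 3.21% lower). None of these counts exceeded 2 of the 8 genes. DESeq2 called 1 member higher in ok1649 (*cnc-2*; 2.55% of all genes), 1 lower in tm1961 (*cnc-4*; 8.39%) and 0 in ok259 and tm474.

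By overlap with N2, *cnc-2* and *nlp-29* lay wholly above N2 in ok1649, as did 15.9% of all genes, and *cnc-4* lay wholly below N2 in tm1961, as did 21.1%. *nlp-29* lay wholly below N2 in ok259 (7.5% of all genes) and *cnc-2* wholly above N2 in tm474 (8.19%). The median log2 fold change of the 8 genes was 1.07 in ok1649 (0.16 over all genes tested), -0.34 in tm1961 (0.11), -0.19 in ok259 (0.03) and -0.13 in tm474 (0.08). With the noncoding share as a covariate this median was -0.77 in ok1649, -2.08 in tm1961, -2.41 in ok259 and -0.54 in tm474. In that fit 4 of 8 genes were lower in tm1961 and 4 of 8 in ok259 at an unadjusted p below 0.05 in edgeR, where 4.49% and 6.03% of all genes were, and 0 were called. The covariate fit used all 15 libraries, and the shares of N2 (4.03% to 5.50%) and tm1961 (15.6% to 26.4%) did not overlap. Its tm1961 values against N2 thus rest on extrapolation. No library of ok1649 or ok259 lay within the N2 range either. Replicate 1 was below it (3.51% in ok1649 and 2.99% in ok259), and replicates 2 and 3 were above it. Within these strains the slope on the share thus rests on replicate 1, the library with the high yolk sum, against replicates 2 and 3. The covariate values of ok1649 and ok259 are limited in the same way. After the strain means were subtracted, r of the 8 genes with this share was 0.58 to 0.82 over 15 libraries. It was -0.62 to 0.13 over the 12 libraries with low yolk sums, where ok1649, ok259 and tm474 kept only replicates 2 and 3. Over the 13 alternatives the median ran from -0.77 to 1.55 in ok1649, from -2.08 to -0.011 in tm1961, from -2.41 to 0.37 in ok259 and from -0.82 to 0.37 in tm474, and in ok1649 it was 0.12 without ok1649 replicate 2 and 0.42 without N2 replicate 3. All 4 comparisons share the same 3 N2 libraries.

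**Figure D2:**
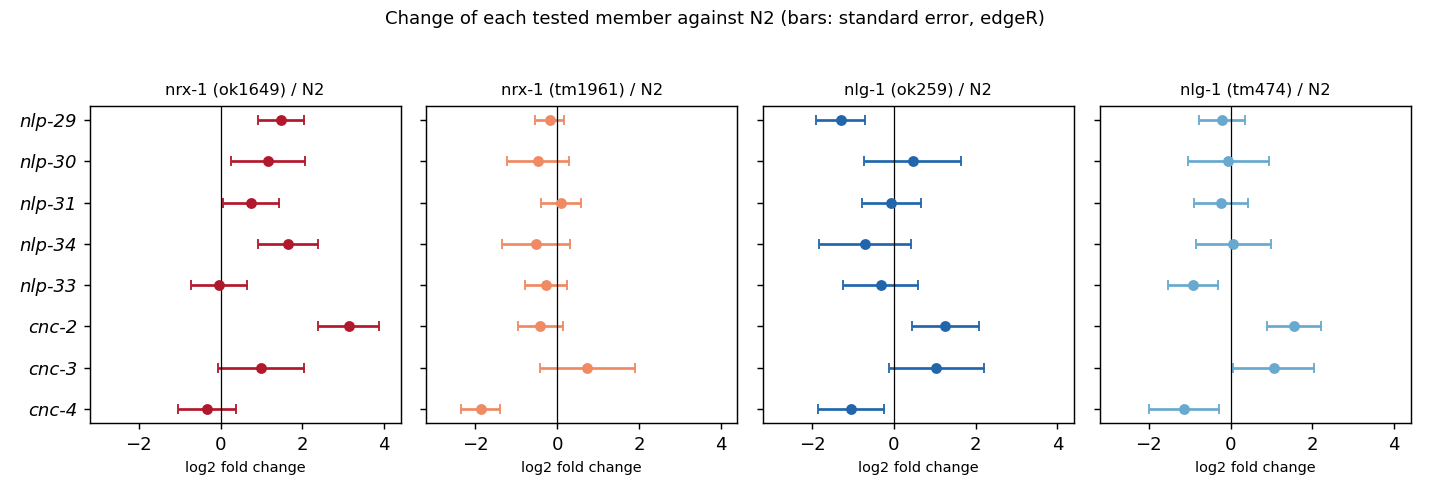
Log2 fold change against N2 for the 8 tested genes in each mutant strain, with the standard error from edgeR. In ok1649, 6 of 8 genes lie to the right of 0, led by *cnc-2* at 3.13, and in tm1961 *cnc-4* lies farthest to the left at -1.87.

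ok1649 and tm1961, which carry deletions in the same gene, were also compared with each other without N2. Against N2 they were on opposite sides for several genes. All 8 log2 fold changes of ok1649 over tm1961 were positive, with a median of 1.65 (0.16 over all genes tested). *cnc-2* was 3.63 ± 0.82 on the log2 scale (SE, unadjusted p = 0.000970), *nlp-34* 2.22 ± 0.84 (unadjusted p = 0.0222) and *nlp-29* 1.78 ± 0.66 (unadjusted p = 0.0202). The edgeR adjusted p was 0.999985 for each of these 3 genes, and 0 of the 8 genes were called, where 0.0124% of all genes were called in each direction. At an unadjusted p below 0.05, 3 of 8 genes were higher, against 0.328% of all genes higher and 0.383% lower, and 2 of 8 lay wholly above tm1961, against 1.12%.

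*cnc-2* was called in this comparison with DESeq2 (3.60, adjusted p = 0.0218, with 0.0304% of all genes called higher) and in edgeR with no filter on low counts (3.58, adjusted p = 0.0344, 0.0351%). Its adjusted p ranged from 0.0218 to 1 over 11 alternatives, and its direction was the same in all 11. *cnc-2* in ok1649 averaged 5.78 ± 4.09 CPM and in tm1961 0.44 ± 0.18 CPM (SD, n = 3 each).

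The *nlg-1* strains were closer to each other. For ok259 over tm474, 5 of 8 log2 fold changes were positive, the median was 0.15 (0.04 over all genes tested), and 0 of 8 had an unadjusted p below 0.05, against 0.29% of all genes higher and 0.403% lower. *nlp-29* was the gene with the smallest p, at -0.92 ± 0.78 (SE, unadjusted p = 0.267). Same-numbered libraries of these strains deviated together. Blocked on the replicate number, 0.0504% of all genes were called higher and 0.0378% lower, against 0% and 0% when unblocked, and the call was the same for all 8 peptide genes. DESeq2 called 0 of the 8 and gave 0 an unadjusted p below 0.05.

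Across the 5 strains in 1 test, edgeR's quasi-likelihood F test over all 15 libraries, 0 of the 8 genes passed an adjusted p of 0.05, as 0.0402% of all genes did. At an unadjusted p below 0.05, 2 of 8 passed, where 4.71% of all genes did. They were *cnc-2*, with an unadjusted p of 0.00186 and an edgeR adjusted p of 0.689, and *nlp-29*, with an unadjusted p of 0.00324 and an edgeR adjusted p of 0.881. With replicate 1 of every strain left out, *cnc-2* passed (edgeR adjusted p = 0.0169), 7 of 8 had an unadjusted p below 0.05, and of all genes 1.3% and 32.1% did so. The edgeR adjusted p of *nlp-29* was then 0.0628. Over the 4 alternatives the adjusted p ranged from 0.0169 to 0.977 for *cnc-2* and from 0.0628 to 0.977 for *nlp-29*.

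The yolk and molting genes, which mark the adult intestine and the building of a new cuticle, varied with the peptide genes between libraries. Among the 12 libraries with low yolk sums, the summed CPM of 8 molting genes (*mlt-7*, *mlt-8*, *mlt-10*, *mlt-11*, *noah-1*, *noah-2*, *nas-37* and *ptr-4*) ranged from 78.6 in tm1961 replicate 3 to 3705 in tm474 replicate 3. None of the 8 was at 0 in any library. The sums were 225 to 692 CPM in ok1649, 78.6 to 1286 CPM in tm1961, 143 to 807 CPM in ok259 and 167 to 3705 CPM in tm474, against 170 to 1629 CPM in N2, over all 15 libraries. The strains therefore overlapped in their molting sums.

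Over these 12 libraries, *nlp-33* had a Pearson r of 0.67 with the molting sum on the log2 scale (Spearman's rho 0.62, 0.76 without the 2 most extreme libraries), and 0.97 after the strain means were subtracted. For *cnc-3* r was 0.76 (rho 0.81) and 0.94 within strains, and for *cnc-4* 0.66 (rho 0.59) and 0.95 within strains. *nlp-34* and *nlp-30* had 0.59 and 0.61, and 0.90 and 0.84 within strains. The coefficients were lower for *nlp-31*, at 0.44 (0.73 within strains), and for *cnc-2*, at 0.31 (0.76 within strains, and 0.089 without the 2 most extreme libraries). *nlp-29* was the member with a negative coefficient over these 12 libraries, with an r of -0.28 (rho -0.44) and -0.61 within strains. Over all 15 libraries its r was 0.013 (rho -0.014), and 0.15 within strains, whereas r of the other members was 0.37 to 0.78. Among the 12 libraries, ok1649, ok259 and tm474 had only replicates 2 and 3. Each of these strains thus gave a single difference to the coefficients within strains, which rest on fewer independent values than 12. In tm474 that difference was between molting sums of 265 CPM and 3705 CPM. These are descriptions of libraries that share strains and normalization, without a test, and the part of the molting genes in the differences between strains was not tested.

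In the 3 libraries with high yolk sums the peptide genes were low, as given above, and molting sums were 225 CPM in ok1649, 143 CPM in ok259 and 167 CPM in tm474. Similar molting sums occurred elsewhere, at 226 CPM in ok1649 replicate 3 and 170 CPM in N2 replicate 3. There *nlp-33* had 98.0 and 47.6 CPM, against 18.8, 5.88 and 15.5 CPM in the 3 libraries. Since yolk levels fell into separate groups of libraries, no coefficient with them is given over all 15. Within the 12 others, r with the yolk sum was -0.67 for *cnc-3*, -0.63 for *nlp-31*, -0.56 for *nlp-30* and -0.55 for *nlp-33*. It was -0.52 for *cnc-2*, -0.33 for *nlp-34*, -0.07 for *cnc-4* and 0.05 for *nlp-29*. The value of *nlp-29* was not stable, with a rho of 0.34, an r of 0.63 within strains and -0.38 without the 2 most extreme libraries. Within strains r of the other members was -0.77 to -0.37. Yolk sums of replicates 2 and 3 were 1164 and 1701 CPM in ok1649, against 8830 to 19961.5 CPM in N2. The part of this difference in the *cnc-2* and *nlp-29* values of ok1649 was not tested. In ok1649 replicate 1, the library with a yolk sum of 120169 CPM, *nlp-29* had 3.50 CPM, against 2.42 to 3.09 CPM in N2.

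**Figure D3:**
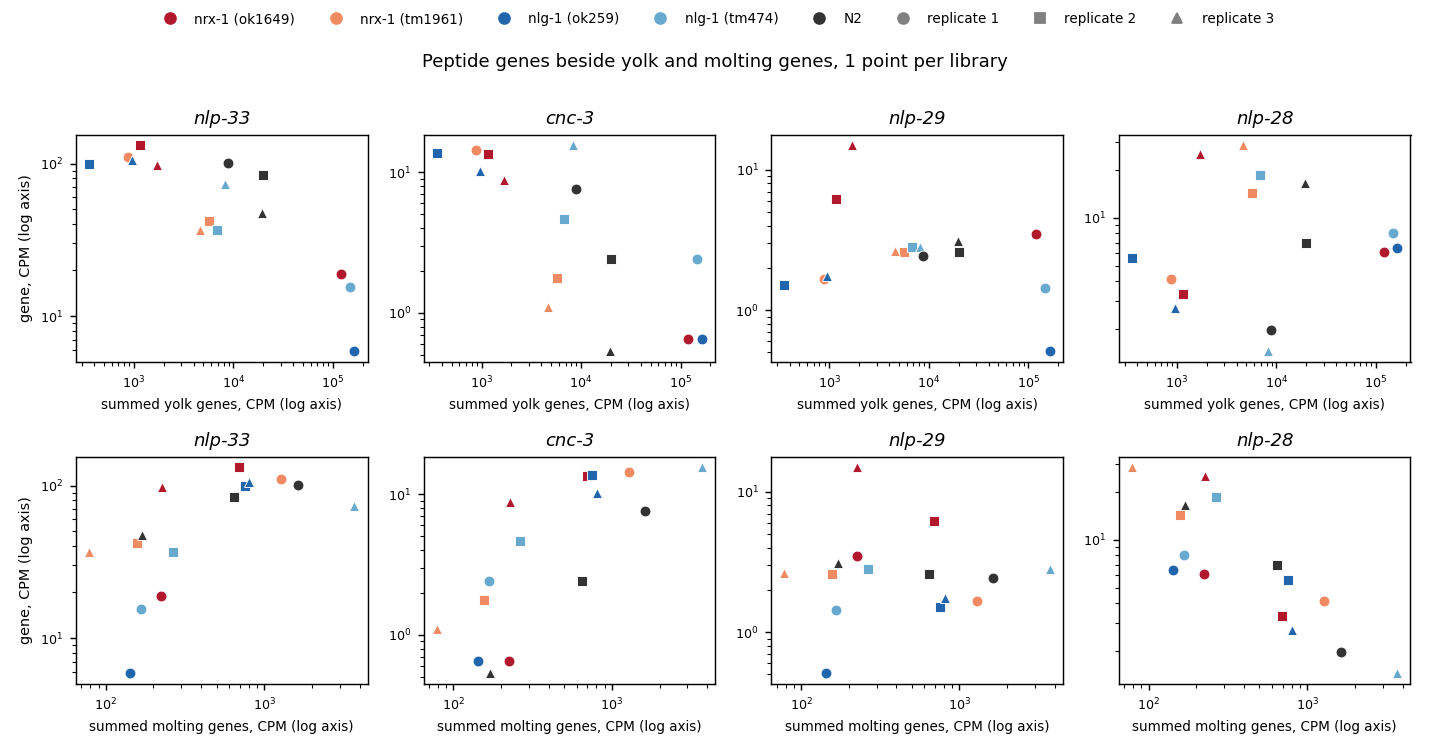
CPM of *nlp-33*, *cnc-3*, *nlp-29* and *nlp-28* (log axis) against the summed CPM of 6 yolk genes (upper row) and 8 molting genes (lower row, log axes), 1 point per library, coloured by strain with the symbol giving the replicate. The 3 libraries at yolk sums above 100000 CPM hold the lowest *nlp-33* values, and among the other 12 *nlp-28* declines along the molting axis where *nlp-33* and *cnc-3* climb.

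Among the 12 libraries with low yolk sums most members varied together, and *nlp-29* followed them less closely. Over the same 12 libraries, the 15 pairs among *cnc-3*, *cnc-4*, *nlp-30*, *nlp-31*, *nlp-33* and *nlp-34* had Pearson r of 0.52 to 0.91 (median 0.76), although they lie at 3 places on the chromosome. *cnc-2* had 0.57 to 0.84 with these 6 genes (median 0.75). *nlp-29* had 0.02 to 0.53 with them (median 0.29), and 0.60 with *cnc-2*. Over all 15 libraries *nlp-29* had 0.25 to 0.74 with the 6 genes, and 0.48 to 0.74 within strains. These 6 genes were grouped after their values were seen, and no test was made.

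Within the *nlp-29* cluster the pattern changed between neighbours. *nlp-34*, *nlp-31* and *nlp-30* followed *nlp-33*, *nlp-29* was intermediate, and *nlp-28* and *nlp-27*, the next genes of the cluster, had r of -0.67 to -0.04 with the 6 genes (median -0.42). Against the molting sum r was -0.94 for *nlp-28* and -0.82 for *nlp-27*. *nlp-28* had 28.7 CPM in tm1961 replicate 3, the library with the lowest molting sum, and 1.44 CPM in tm474 replicate 3, the library with the highest. In those libraries *cnc-3* had 1.1 and 15.5 CPM. *nlp-29* had r of 0.54 with *nlp-27* and 0.36 with *nlp-28*. The pattern was not limited to this cluster, since *nlp-26*, a relative far from it on the same chromosome, had r of -0.91 with the molting sum, 0.91 with *nlp-27* and 0.90 with *nlp-28*.

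**Figure D4:**
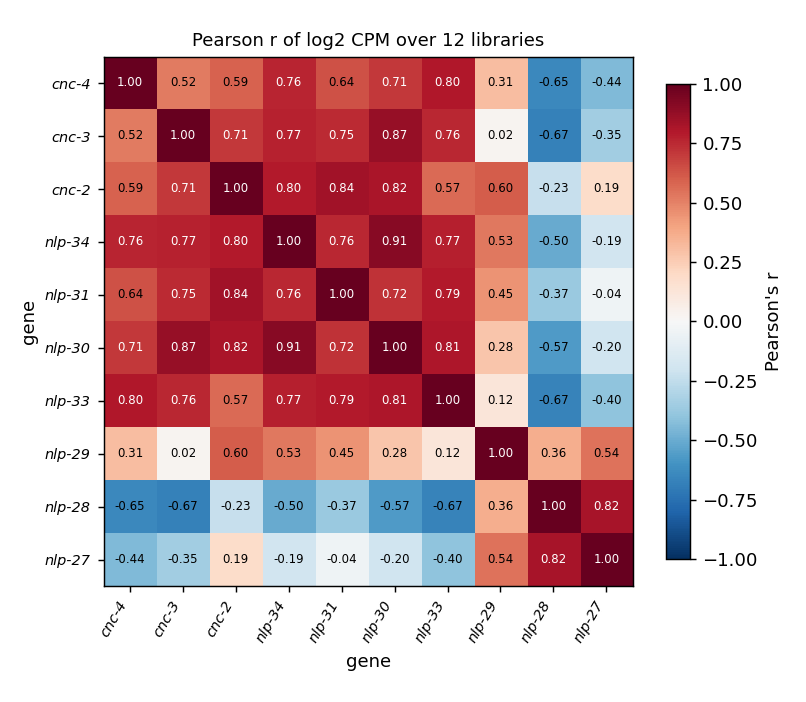
Pearson's r of log2 CPM between pairs of genes over the 12 libraries with yolk sums below 100000 CPM, for the 8 detected members and their neighbours *nlp-28* and *nlp-27*. The 7 genes from *cnc-4* to *nlp-33* are positively correlated with each other, *nlp-29* is weakly so with most of them, and *nlp-28* and *nlp-27* are negative with the 6 that exclude *cnc-2*.

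Relatives outside the 10 genes were measured alongside. Of the other 6 *nlp* genes of the family, 5 were tested and *nlp-32* was near the floor. edgeR and DESeq2 called 0 of them in any strain, and in edgeR at an unadjusted p below 0.05 only *nlp-27* in ok1649 was higher (log2 fold change 1.46 ± 0.62, SE, unadjusted p = 0.0448). Of the other 6 caenacins, *cnc-8* and *cnc-10* were tested. *cnc-8*, at 108 ± 23.2 CPM per kb in N2 (SD, n = 3), was more abundant than *cnc-4*. *cnc-10* was 1.39 ± 0.58 on the log2 scale in ok1649 (unadjusted p = 0.0407), and edgeR and DESeq2 called 0 of these 2 genes. Of the 36 *fip* and *fipr* genes, which encode fungus-induced peptides and their relatives, 19 or 20 were tested and edgeR called 0, with 1 higher in ok1649 at an unadjusted p below 0.05, and medians of 0.60 in ok1649, 0.38 in tm1961, 0.07 in ok259 and -0.08 in tm474.

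The upstream genes were all detected. The 14 genes of the epidermal p38 cascade had median log2 fold changes of -0.57 in ok1649, -0.85 in tm1961, -0.62 in ok259 and -0.17 in tm474, and edgeR called 0 of them and DESeq2 1, *rack-1* in tm1961, where it called 8.39% of all genes lower. In tm1961, 6 of 14 were lower at an unadjusted p below 0.05, where 15.6% of all genes were, with *rack-1*, a G protein beta-like scaffold, at -1.87 ± 0.45 (SE, unadjusted p = 0.00356). Several marker lists of other tissues were lower in tm1961 as well. At an unadjusted p below 0.05 in edgeR, 5 of 5 germline genes (median -1.38) and 4 of 8 intestinal genes (-1.18) were lower. So were 4 of 8 oocyte genes (-1.47), 2 of 6 yolk genes (-1.49) and 6 of 31 sperm genes (-0.83). Of 5 muscle genes (-1.34), 3 were lower and 1 higher. Only 1 of 10 epidermal markers (-0.68) and 1 of 8 molting genes (-0.58) were lower. Neuron markers went both ways, with 1 of 8 lower and 2 of 8 higher (-0.19). The part of these lists in the values of the cascade was not tested. *nipi-3*, *tir-1*, *nsy-1*, *egl-8* and *plc-3*, also genes of the cascade, were between -1.22 and -0.86 in tm1961. *pmk-1*, the p38 kinase itself, was 0.86 ± 0.30 (unadjusted p = 0.0220). In ok1649 only *gpa-12*, the G protein alpha subunit of the cascade, had an unadjusted p below 0.05, at 1.38 ± 0.53 (unadjusted p = 0.0280).

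Of the 9 TGF-beta pathway genes linked to *cnc-2*, 0 were called by edgeR or DESeq2. In tm1961, 2 of 9 were higher and 1 lower at an unadjusted p below 0.05, where 18.6% and 15.6% of all genes were. They were the Smad gene *sma-2* at 1.03 ± 0.35 (SE, unadjusted p = 0.0204), the receptor gene *sma-6* at 0.91 ± 0.32 (unadjusted p = 0.0232) and, in the opposite direction, the transcription factor gene *sma-9* at -1.15 ± 0.42 (unadjusted p = 0.0278). *sma-6* was also 1.16 ± 0.47 in ok259 (unadjusted p = 0.0392), where 6.44% of all genes were higher at an unadjusted p below 0.05. In ok1649 and tm474, where *cnc-2* lay above N2, 0 of 9 had an unadjusted p below 0.05. Of all genes, 13% were higher and 5.11% lower in ok1649, and 5.2% and 3.21% in tm474. edgeR and DESeq2 called 0 of the 6 furrow collagens, whose loss is known to switch *nlp-29* on, and *dpy-3* was -3.06 ± 1.22 in ok259 (unadjusted p = 0.0379). edgeR called 0 of 8 genes of the osmotic response, with 1 in tm1961 and 1 in ok259 lower at an unadjusted p below 0.05, beside 15.6% and 7.76% of all genes, and DESeq2 called both of these (*osm-11* in tm1961 and *hmit-1.1* in ok259), beside 8.39% and 2.5% of all genes.

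The intestine uses the same p38 kinase for a different set of immune genes, and 6 of 7 such targets listed were measured. The authors had already reported *irg-4* and *T24B8.5* as higher in ok1649 and *C17H12.8* as higher in ok259, from these same libraries. The counts and medians of this list are therefore not independent of those reports. edgeR called 0 of them and DESeq2 3 in ok1649 and 2 in ok259, all higher, beside 2.55% and 1.15% of all genes, and in edgeR 4 in ok1649, 2 in tm1961, 3 in ok259 and 4 in tm474 were higher at an unadjusted p below 0.05, beside 13%, 18.6%, 6.44% and 5.2% of all genes. *irg-4* was 2.74 ± 0.58 in ok1649, 1.83 ± 0.73 in tm1961, 1.65 ± 0.58 in ok259 and 1.62 ± 0.43 in tm474 on the log2 scale (SE). The median over these 6 genes was 2.02, 1.38, 1.18 and 1.65 in the same strains, where the epidermal peptide genes had 1.07, -0.34, -0.19 and -0.13.

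Within 20 kb of the caenacin cluster, of the *nlp-29* cluster and of *nlp-33*, edgeR called 0 of the 6 to 9 other genes tested per region in any strain, with 0 to 3 per region and strain at an unadjusted p below 0.05. DESeq2 called *pqn-54*, near the caenacins, lower in ok1649, tm1961 and ok259, beside 1.58%, 8.39% and 2.5% of all genes, and *jmjd-5*, near *nlp-33*, higher in the same strains, beside 2.55%, 9.07% and 1.15%.

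The genes most like *cnc-2* over the 15 libraries, by Pearson r of log2 CPM, were *C29F4.3* (0.89, Spearman's rho 0.97), *F47E1.2* (0.89, rho 0.91), *ZK970.7* (0.88, rho 0.89), *T07G12.2* (0.87, rho 0.86) and *T22F7.4* (0.86, rho 0.92). Those most like *nlp-29* were *fipr-21* (0.85, rho 0.66), *F59E12.16* (0.81, rho 0.87), *C01G10.5* (0.79, rho 0.75), *CE7X_3.2* (0.78, rho 0.48) and *Y54E2A.5* (0.78, rho 0.48). *fipr-21*, nearest to *nlp-29*, is itself a relative of a fungus-induced peptide gene, and *F59E12.16* and *CE7X_3.2* are annotated as pseudogenes. The 15 libraries share strains and depth, so these coefficients describe likeness only.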

How the data were processed

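The authors prepared strand-specific libraries after depletion of rRNA, used Trimmomatic for trimming and STAR for alignment, and counted uniquely mapped reads on exons with featureCounts. What was deposited by the authors are raw, unnormalized counts for each gene in each library. The submitters' processing notes name bcl2fastq 2.20 and the WBcel235 build. The strand setting of the counting is not given in the sources used here. Positions and exon lengths came from the Ensembl 115 annotation of that build, which held 46581 of 46756 gene identifiers. Totals ran from 10152578 to 26211067 counts per library. The floor of detection was set at 3 counts for every library. This floor covers counting error only.

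Groups came from the sample labels. Each strain was compared with N2, and the alleles of a gene with each other, in edgeR 4.0.16 (R 4.3.3) on 3 against 3 libraries, with TMM factors, filterByExpr and the quasi-likelihood test in legacy mode, adjusted after Benjamini-Hochberg over all genes tested. The standard error is the log2 fold change divided by the square root of F. Calls needed an adjusted p under 0.05 and a change of over 1 in size on the log2 scale. Correlations used log2 CPM with a prior count of 2. The procedure was tested on simulated counts.

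The alternatives were DESeq2 1.42.0, all 15 libraries in 1 fit, DESeq2 size factors, library totals, no filter, the replicate number as a block, the noncoding share as a covariate, and each library left out. The covariate fit also used all 15 libraries. The fit without replicate 1 of every strain and the pairs of an *nrx-1* with an *nlg-1* strain were added after seeing the data. The 10 genes and all lists were chosen with earlier results of these data known. Values in every library are given for *nlp-29*, *cnc-2* and the gene with the smallest p in a strain. Likeness was taken as the 5 highest Pearson coefficients over 15 libraries, and upstream genes as the smallest p values of each list. Other genes were named after their values were seen.

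Replicate numbers are shared between strains in the labels. Deviations from strain means of same-numbered libraries correlated at 0.673, 0.182 and 0.633 between tm1961 and N2, and at 0.777, 0.577 and 0.287 between ok259 and tm474. The main fits of these comparisons were unpaired, and the fit blocked on the replicate number is given beside them. The other 4 comparisons had at least 1 coefficient below 0.1.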

Additional observations from a re-analysis of the deposited data

Results flagged for a closer look

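*nlp-29* stood on opposite sides of the N2 mean in different mutant strains: every ok1649 library was above it and every tm1961 library and every ok259 library below it. Tested directly in edgeR, ok1649 over tm1961 was 1.78 ± 0.66 on the log2 scale (SE, unadjusted p = 0.0202, adjusted p = 0.999985). ok1649 over ok259 was 2.48 ± 0.76 (SE, unadjusted p = 0.0132, edgeR adjusted p = 0.999958). Neither difference passed the correction over all genes. The ok259 pair was among those added after seeing the data, where *cnc-2* in tm1961 over tm474 was -2.05 ± 0.70 (SE, unadjusted p = 0.0148, edgeR adjusted p = 0.863). *nlp-29* was higher in 3 of 3 ok1649 libraries than in the highest library of tm1961, as were 1.12% of all genes. The same held over ok259, where this share was not computed. At an unadjusted p below 0.05 in edgeR, 0.328% of all genes were higher and 0.383% lower over tm1961, and 0.524% differed from ok259. The share of noncoding counts in those strains was 3.51% to 25.3% in ok1649, 15.6% to 26.4% in tm1961 and 2.99% to 30.3% in ok259. With this share as a covariate, edgeR's F test across the 5 strains gave *nlp-29* an unadjusted p of 0.000184 and an adjusted p of 0.148 (range 0.0628 to 0.977 over 4 alternatives).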

How the results depend on the processing

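Over 48 log2 fold changes (8 genes, 6 comparisons) and 592 values under the alternatives, 525 kept direction and call, 12 gained a call and 55 changed sign, 36 of these on leaving out a library. None of the 48 was called at the outset, which leaves no call to lose. 23 of the 48 never changed sign. The cause of the changes was not tested.

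With library totals the log2 fold change of *nlp-33* was 0.27 in ok1649 and 0.054 in ok259, that of *nlp-31* was 0.27 in ok259, and that of *cnc-2* was 0.12 for ok259 over tm474. With all 15 libraries in 1 fit *nlp-33* was 0.089 in ok1649 and *nlp-31* 0.13 in ok259, and with DESeq2 size factors *nlp-31* was 0.0080 in ok259. With the noncoding share as a covariate *cnc-3* was -1.02, *nlp-30* -0.88 and *nlp-31* -0.66 in ok1649, *cnc-3* -1.67 and *nlp-31* -1.68 in tm1961, *cnc-2* -0.53, *cnc-3* -1.75 and *nlp-30* -2.63 in ok259, and *nlp-34* -0.18 in tm474. With the replicate block *nlp-31* was -0.056 in tm1961, *nlp-34* -0.41 in tm474 and *cnc-3* -0.23 for ok259 over tm474. The block changed no other call than that of *cnc-4* in tm1961.

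Leaving out 1 library at a time gave, in ok1649, -0.041 to 2.17 for *cnc-3*, -1.19 to 0.097 for *cnc-4* and -0.86 to 0.37 for *nlp-33*. In tm1961 it gave -1.26 to 1.98 for *cnc-3*, -0.54 to 0.40 for *nlp-31* and -0.96 to 0.042 for *nlp-33*. In ok259 it gave -0.41 to 0.48 for *nlp-31* and -0.77 to 0.26 for *nlp-33*. In tm474 it gave -0.043 to 2.32 for *cnc-3*, -0.45 to 0.080 for *nlp-29*, -0.83 to 0.50 for *nlp-30*, -0.82 to 0.24 for *nlp-31* and -1.18 to 0.58 for *nlp-34*. For ok1649 over tm1961 it gave -0.30 to 2.36 for *cnc-3* and -0.11 to 1.03 for *nlp-33*. For ok259 over tm474 it gave -0.61 to 0.32 for *cnc-2*, -0.52 to 1.27 for *cnc-3*, -0.44 to 1.73 for *cnc-4*, -0.14 to 1.02 for *nlp-31* and -1.41 to 0.73 for *nlp-34*.

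Members called higher in ok1649 numbered 1 with DESeq2, 1 with no filter and 0 to 4 with 1 library left out, the 4 without replicate 1. Members called lower in tm1961 numbered 1 with DESeq2, 1 with the block and 0 to 1 with 1 library left out, and members called higher in ok259 0 to 1. For ok1649 over tm1961, 1 member was called higher with DESeq2 and 1 with no filter, and across the 5 strains 1 passed without replicate 1 of every strain.

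Of all genes, DESeq2 called 383 higher and 238 lower in ok1649, 1595 and 1475 in tm1961, 194 and 423 in ok259, and 22 and 31 in tm474. With no filter the counts were 132 and 175 in ok1649, 2 and 6 in tm1961, 0 and 9 in ok259, and 111 and 71 in tm474. The block gave 0 lower in ok1649, and 2605 higher and 2522 lower in tm1961. All 15 libraries in 1 fit gave 2, 3 and 3 lower in tm1961, ok259 and tm474, and the noncoding covariate 2, 1 and 3. With 1 library left out, 0 to 3582 were called higher and 0 to 4160 lower in ok1649, 0 to 3164 and 0 to 2944 in tm1961, and 0 to 3246 and 0 to 3832 in ok259, the highest each time without replicate 1 of the mutant strain. The scale moved the median of all genes by over 0.1 in 3 strains: with library totals it was 0.25 in tm1961, 0.18 in ok259 and -0.07 in tm474.

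*cnc-1*, *cnc-5* and, in single libraries, *nlp-30* and *nlp-34* were at or under 3 counts, where differences were not detectable at this depth.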
